A study of Mus musculus with 4 samples.

Results

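Translation initiation and elongation factors are the proteins that load ribosomes onto messenger RNA and drive the ribosome along it. Their transcripts were compared between mammary tissue with and without miR-21, a microRNA found in the mammary gland and in many other tissues. The genes were chosen by name alone: every gene name of the deposited table that begins with Eif followed by a digit from 1 to 6 or with Eef followed by 1 or 2 was taken, apart from the Argonaute genes (Eif2c) and the eIF2 kinases (Eif2ak). The rule found 58 of 22479 distinct gene names, on 59 rows of the table. Eif4ebp1 stood on 2 rows, and its row of higher level was used (the other row had 0.818 FPKM in miR-21 +/+ and 0.828 FPKM in miR-21 -/- tissue). FPKM counts fragments relative to the exon length of a gene and to all mapped fragments of a library, so it is a level per length and can be compared between genes.

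Poly(A) RNA from the mammary glands of 4 mice on a 129SV::FVB/N::C57BL/6 background, 2 months old, was sequenced. The 2 miR-21 +/+ mice (wild type) carried both copies of the microRNA gene and the 2 miR-21 -/- mice (knockout) lacked it in every cell of the body, not in the epithelium alone. The table gives a single FPKM value a genotype that combines both of its mice. How far single mice differed cannot be seen from it, no value has a replicate check, and a test across mice could not be run. A difference is described here by the log2 ratio of the miR-21 -/- level over the miR-21 +/+ level, and it compares these pools of tissue. The genotype could not be checked on the targeted gene, because the table joins Mir21 to its host gene Vmp1 (42.5 FPKM in miR-21 +/+, 68.2 FPKM in miR-21 -/-) and poly(A) RNA does not hold the mature microRNA.

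In the cell, translation starts when the initiator tRNA, carried by eIF2, binds the small ribosomal subunit together with eIF1, eIF1A, eIF3 and eIF5. The cap-binding complex eIF4F (the cap-binding protein eIF4E, the scaffold eIF4G and the RNA helicase eIF4A) brings the mRNA, and eIF5B joins the large subunit once the start codon is found. The elongation factor eEF1A then delivers each aminoacyl-tRNA and eEF2 moves the ribosome to the next codon. In the mammary gland this machinery is best known for the heavy synthesis of milk proteins during lactation, whereas the glands examined here came from virgin mice.

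A microRNA represses transcripts that pair with its seed, so the microRNA and the sites it could pair with in these genes are shown first. The mature microRNA (mmu-miR-21a-5p, 22 bases, RefSeq GRCm38.p6, chr11:86584120-86584141, minus strand) has its seed, bases 2 to 8, in capitals:
mmu-miR-21a-5p: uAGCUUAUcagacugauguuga
An mRNA pairs with this seed where it holds ATAAGCT (a 7mer-m8 match), or ATAAGCTA (an 8mer match, where an A follows). For each gene, the longest 3′ UTR in the GENCODE annotation of mm9 was searched on the transcribed strand. Of the 57 factors with such a UTR, 4 held a match (7.02%), against 893 of 12835 gene names (6.96%). The factors were counted at any level, and the gene names only with a mean of at least 1 FPKM and a value above 0 in both genotypes. The windows for Eif1ax (chrX:155824477-155824504, plus strand, an 8mer at base 1147 of a UTR of 4515 bases), Eif2a (chr3:58361320-58361347, plus strand, a 7mer-m8 at base 1674 of 1762 bases) and Eif4g2 (chr7:118215153-118215180, minus strand, a 7mer-m8 at base 1041 of 4707 bases) read, in mm9 with the 7 paired bases in capitals:
Eif1ax: aggagtcttactcacATAAGCTacaatt
Eif2a: gatgattttttccagATAAGCTtaataa
Eif4g2: ctaagcacctaaggaATAAGCTtgtctc
The UTR of Eif2a is that of a transcript annotated as a nonsense-mediated decay product. Eif1a, which encodes an eIF1A protein, held a 7mer-m8 match as well.

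All 4 genes with a seed match were higher in miR-21 -/- tissue in the deposited scaling, by log2 ratios of 0.03 for Eif2a, 0.06 for Eif1ax, 0.12 for Eif4g2 and 0.36 for Eif1a. Among all gene names with a match, 432 of 893 were higher (48.4%), and their median log2 ratio was -0.01, beside -0.03 for names without a match. Apart from Eif1a, the log2 ratios of these genes were inside the range of -0.19 to 0.15 that held the factors from the 5th to the 95th percentile. The uniform direction held for these site types only. When matches to TAAGCTA (7mer-A1) were added, 5 of 7 factors were higher, beside 682 of 1434 gene names (47.6%). The lower ones were Eif2s1 (-0.13) and Eif2s3x (-0.04). A match of letters is a description of the sequence and does not show that the microRNA binds there.

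In the deposited scaling, the levels of the factors were close in the 2 genotypes. Of the 58 genes, 56 had a mean of at least 1 FPKM, and Eif4e1b and Eif2s3y were listed at 0 in both genotypes. The summed level of all factors was 6545 FPKM in miR-21 +/+ and 6474 FPKM in miR-21 -/- tissue, a log2 ratio of -0.02, and came to 1.72% and 1.82% of the FPKM of all named genes. In this scaling 28 of the 56 genes were higher (50%, beside 44.4% of all gene names) and 28 lower. The log2 ratios had a median of 0.00 and ran from -0.28 (Eif4a2) to 0.61 (Eef1a2). Their interquartile range was 0.11, against 0.28 over the 13633 gene names with a mean of at least 1 FPKM and a value above 0 in both genotypes, whose median was -0.03. The width does not depend on how the columns are scaled, but the position does: with equal sums over all loci the median was -0.63 for the factors and -0.66 for all gene names.

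A single factor, Eef1a2, was at least 1.5-fold higher in miR-21 -/- tissue (1.79% of the factors, beside 4.89% of all gene names), and none was at least 1.5-fold lower (beside 5.79%). With equal sums over all loci, none was at least 1.5-fold higher and 37 of 56 were at least 1.5-fold lower, beside 64.7% of all gene names. At a lower limit, a log2 ratio of 0.32, Eef1a2 and Eif1a were higher (beside 10.3%) and again none was lower (beside 13.6%). The log2 ratio lay within 0.1 of 0 for 39 of 56 factors, or 69.6%, beside 38.9% of all gene names. When the columns were scaled to equal sums over named genes, which adds 0.10 to every log2 ratio, this held for 25 factors (44.6%) and 33.9% of gene names. With equal sums over all loci it held for 1 factor (1.79%) and 2.32% of gene names, so the higher share near 0 depends on the scaling. The factors are expressed above the usual level, so they were also set beside genes of like level. Among genes with a mean of 10 to 100 FPKM, 29 of 41 factors (70.7%) and 45.5% of 6226 gene names were within 0.1, with interquartile ranges of 0.10 and 0.22. Above 100 FPKM the counts were 8 of 11 factors (72.7%) and 34.5% of 597 gene names, with interquartile ranges of 0.11 and 0.38. Between 1 and 10 FPKM it was 2 of 4 factors and 33.2% of 6810 gene names.

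**Figure D1:**
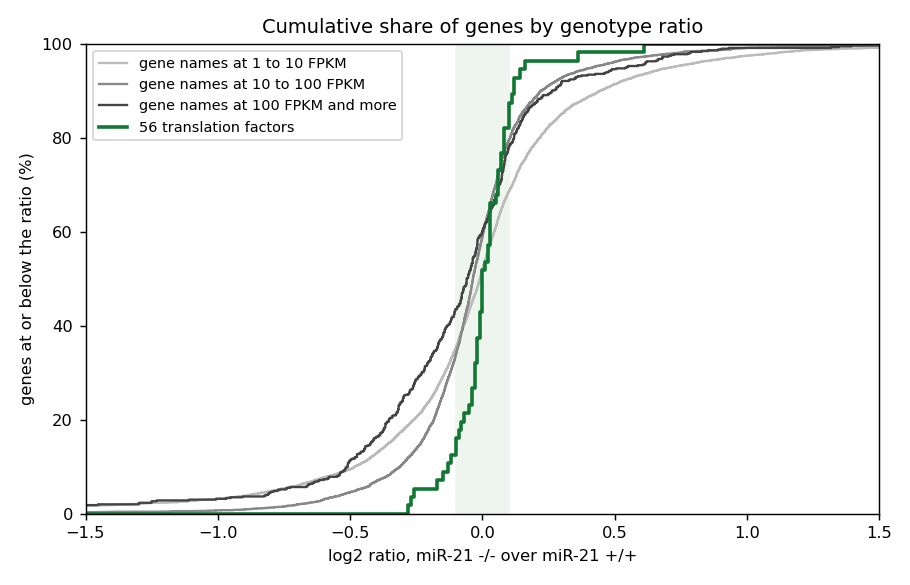
Cumulative share of genes (percent, vertical axis) by log2 ratio of miR-21 -/- over miR-21 +/+ (horizontal axis, drawn from -1.5 to 1.5, deposited scaling), for 56 translation factors (green) and for all gene names in 3 classes of mean FPKM (greys), where the pale band marks ratios within 0.1 of 0. The green curve climbs through the band more steeply than each grey curve, with 69.6% of the factors inside it.

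**Figure D2:**
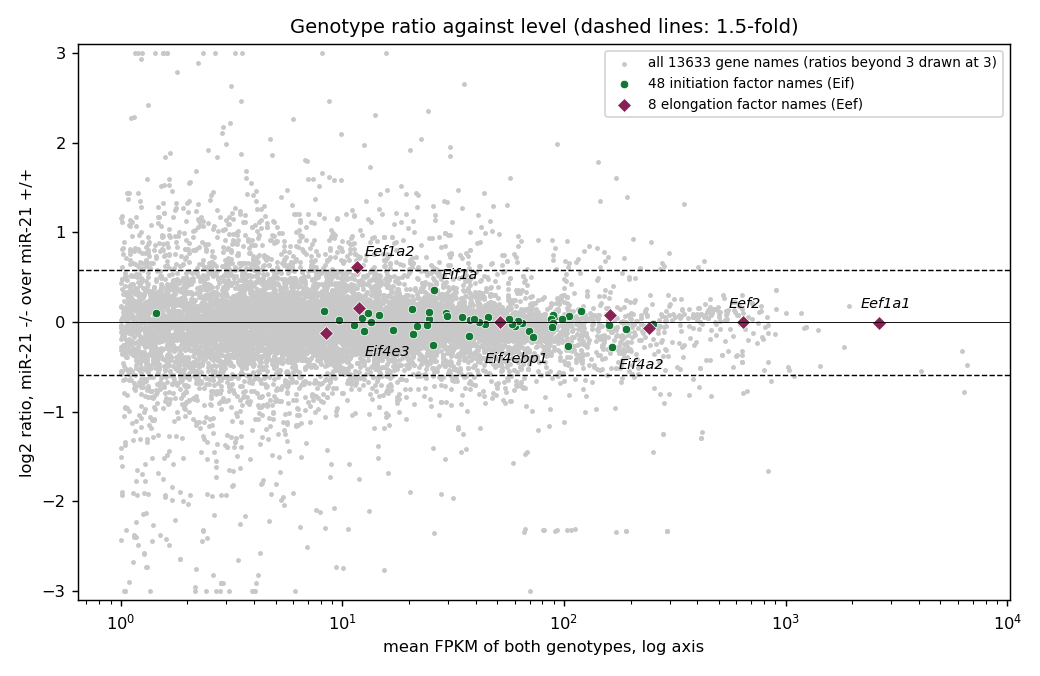
Log2 ratio of miR-21 -/- over miR-21 +/+ (vertical axis, deposited scaling) against mean FPKM of both genotypes (horizontal log axis) for 13633 gene names (grey), 48 Eif genes (green circles) and 8 Eef genes (purple diamonds), each point being 1 gene and the dashed lines 1.5-fold. Eef1a2 lies just above the upper dashed line, and the other factors lie between both lines at every level.

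The limits of the table touch some of these genes. The table marks the estimate of 5 factors as failed (Eif4g1, Eif4g3, Eif5a, Eif4enif1 and Eif4ebp3). With failed rows left out, 35 of 51 factors were within 0.1 of 0 in the deposited scaling (68.6%, beside 38.3% of gene names). Eif4a1 shares a row with Cd68 and Senp3, and Eif4ebp3 shares a row with Ankhd1, so their reads cannot be separated. The loci of further factors overlap other coding genes, among them Eif3i (4 genes), Eif3m (Ccdc73), Eif3j (Spg11), Eif2d (Rassf5), Eif5a (Gps2) and Eif5b (Rev1). The locus of Eif3m spans 130957 bases, against 17425 for the annotated gene. How far reads of the overlapping genes entered these values is not known. Close copies of these coding sequences are common in the genome. For 16 of 57 factors, mm9 held 44 further stretches that matched at least 50% of the coding sequence at 95% identity or more, among them 15 for Eif1, 7 for Eef1a1 (95.97 to 98.56% identity), and 3 each for Eef1g, Eif4a1 and Eif4a3. A single such copy matched Eif2s3x and Eif3j at 100% identity. How the counting shared reads among such copies is not given in the sources used here, so the levels of these 16 genes are uncertain.

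The elongation factors held most of the RNA. Eef1a1, which encodes the main form of eEF1A (chr9:78325550-78329571 in mm9), stood at 2655 FPKM in miR-21 +/+ and 2632 FPKM in miR-21 -/- tissue (log2 ratio -0.01), rank 5 of all gene names by mean level. It made up 40.6% and 40.7% of the FPKM of all factors. Eef2, the translocase, was at 642 FPKM in both genotypes. The subunits of the eEF1B complex, which reloads eEF1A with GTP, were at 249 and 237 FPKM for Eef1g (log2 ratio -0.07), 157 and 167 FPKM for Eef1b2 (0.08) and 51.4 FPKM in both genotypes for Eef1d. Eef1e1, whose product is a scaffold of the tRNA synthetase complex, was at 8.82 and 8.13 FPKM (-0.12). The kinase that inhibits eEF2, Eef2k, was at 11.2 and 12.5 FPKM (0.16). Summed over these 8 genes, the level was 3784 FPKM in miR-21 +/+ and 3763 FPKM in miR-21 -/- tissue.

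Eef1a2 was the exception. It encodes the form of eEF1A that takes the place of eEF1A1 in skeletal muscle, heart and neurons of the adult. The gene lies at chr2:180880554-180891720 in mm9. Its level was 9.27 FPKM in miR-21 +/+ and 14.2 FPKM in miR-21 -/- tissue, 1.53-fold higher (log2 ratio 0.61). Among gene names with a mean of 10 to 100 FPKM, 2.73% had a log2 ratio at or above that of Eef1a2. The mean of Eef1a2, 11.7 FPKM, is near the lower edge of this class, where the 95th percentile of the log2 ratios was 0.42. In the class of 1 to 10 FPKM it was 0.71, above the ratio of Eef1a2. The ratio of Eef1a1 to Eef1a2 was 286 in miR-21 +/+ and 186 in miR-21 -/- tissue. When both columns were scaled to equal sums over all loci, a shift of -0.63 in every log2 ratio, Eef1a2 came to -0.02 and the other factors to lower values still, so the distance of Eef1a2 from the other factors does not rest on the scaling.

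Skeletal muscle markers were higher as well. The gland was taken as whole tissue. All 9 skeletal muscle markers examined (Acta1, Ckm, Myh4, Myh1, Tnnt3, Tnni2, Mylpf, Atp2a1 and Mb) were higher in miR-21 -/- tissue in the deposited scaling, beside 44.4% of all gene names. At least 1.5-fold higher were 8 of them, beside 4.89% of all gene names. The 9 markers had log2 ratios of 0.48 to 1.86 and a median of 0.85. Their summed level was 1235 FPKM in miR-21 +/+ and 2071 FPKM in miR-21 -/- tissue, and none was at 0. Most mammary epithelium markers were higher too, with a median log2 ratio of 0.51. The 4 neuronal markers examined (Rbfox3, Snap25, Syt1 and Tubb3) were all under 1 FPKM, with sums of 0.762 and 0.458 FPKM. The part of these tissues in the Eef1a2 value was not tested. In bulk tissue, more cells of a type and more RNA per cell cannot be told apart.

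The promoters of the 2 eEF1A genes are shown because these paralogs differed most in level, and most between genotypes, among the compared pairs that gave a ratio. The pair Eif2s3x and Eif2s3y gave none, as Eif2s3y was listed at 0 FPKM. RefSeq (GRCm38.p6) gives 250 bases before to 50 bases after the annotated start for 44 of the 58 factors. Capitals mark TATAA, the core of a TATA box, in Eef1a1 (chr9:78481675-78481974, minus strand, 66.7% G and C) and CANNTG, the E-box read by many tissue-specific factors, in Eef1a2 (chr2:181156966-181157265, minus strand, 55% G and C):
Eef1a1: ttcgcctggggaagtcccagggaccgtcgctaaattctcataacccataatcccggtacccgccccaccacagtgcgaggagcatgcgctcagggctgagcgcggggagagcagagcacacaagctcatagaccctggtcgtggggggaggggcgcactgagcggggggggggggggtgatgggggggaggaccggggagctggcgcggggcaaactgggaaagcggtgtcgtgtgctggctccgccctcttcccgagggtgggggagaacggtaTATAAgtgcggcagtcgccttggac
Eef1a2: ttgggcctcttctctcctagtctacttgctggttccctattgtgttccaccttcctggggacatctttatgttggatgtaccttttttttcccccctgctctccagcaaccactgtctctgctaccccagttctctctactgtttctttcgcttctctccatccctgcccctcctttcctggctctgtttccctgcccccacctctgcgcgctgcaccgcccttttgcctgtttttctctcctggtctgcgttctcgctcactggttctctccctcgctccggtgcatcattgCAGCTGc
Eef1a1 held TATAA once, from base 26 after its annotated start, and no CANNTG. As these letters follow the start shown, they are not taken as its TATA box. Eef1a2 held CANNTG once, from base 44 after its start, and no TATAA. On both strands, TATAA was found in 15.9% of the 44 promoters, in 25.5% of all 27025 promoters and in 13.6% of the 9419 promoters of expressed genes, and CANNTG in 59.1%, 72.3% and 63.8%. CCGGAAG, the core read by ETS factors, was found in 34.1% of the factors' promoters (15 of 44), in 9.08% of all promoters and in 17% of those of expressed genes. The median share of G and C was 62.2% in the factors' promoters and 52.7% in all promoters. It was not taken for promoters of expressed genes alone, so this gap cannot be read as particular to the factors. These motifs were chosen after the sequences were seen, and a match shows neither binding nor a cause.

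**Figure D3:**
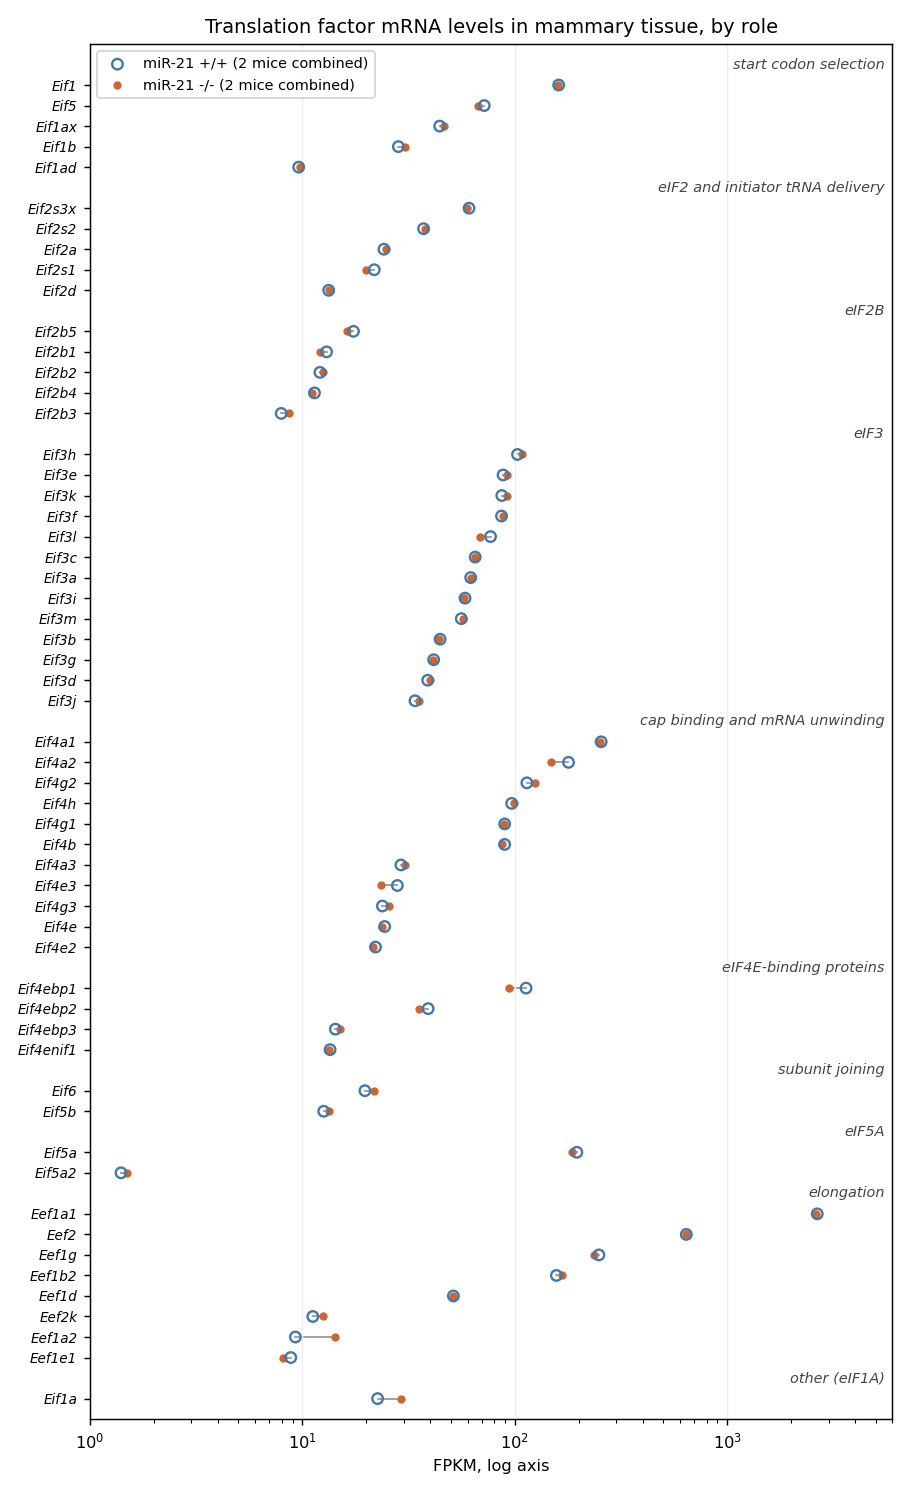
FPKM (horizontal log axis) of the 56 translation factors above 1 FPKM in miR-21 +/+ (open blue circles) and miR-21 -/- tissue (orange points), 1 gene a row by role, each symbol being the authors' value for 2 mice combined and the grey line the distance between them. The symbols coincide for most genes from 1.4 to 2655 FPKM, and the longest line is that of Eef1a2.

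Genes for start codon selection were close in both genotypes. Eif1, whose product guards the fidelity of the start codon, was at 161 FPKM in miR-21 +/+ and 159 FPKM in miR-21 -/- tissue, and Eif5, which makes eIF2 hydrolyse its GTP at the start codon, at 71.8 and 66.8 FPKM (log2 ratio -0.10). Eif1ax, the X-linked gene for eIF1A, was at 44.3 and 46.2 FPKM (0.06). Eif1b was at 28.3 and 30.4 FPKM (0.10) and Eif1ad at 9.61 and 9.75 FPKM (0.02). The gene listed as Eif1a, which has a sequence close to that of Eif1ax, lies at chr18:46757358-46769879 in mm9. It was further apart, at 22.6 FPKM in miR-21 +/+ and 29.1 FPKM in miR-21 -/- tissue. This was a 1.29-fold higher level in the deposited scaling (log2 ratio 0.36, and -0.27 with equal sums over all loci). Among gene names of 10 to 100 FPKM, 5.78% had a log2 ratio at or above 0.36. The genome held 2 further copies of the Eif1a coding sequence at 95.16% identity.

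The subunits of eIF2, which brings the initiator tRNA, differed little. Eif2s3x, the X-linked gene for the gamma subunit, was at 60.9 and 59.4 FPKM in miR-21 +/+ and miR-21 -/- tissue, Eif2s2 (beta) at 37.2 and 37.8 FPKM and Eif2s1 (alpha, the subunit that stress kinases phosphorylate) at 21.8 and 19.9 FPKM (log2 ratio -0.13). The gamma paralog on the Y chromosome, Eif2s3y, was listed at 0 in both genotypes. Eif2a and Eif2d, which can bring tRNA without eIF2, were at 24.2 and 24.8 FPKM and at 13.3 FPKM in both genotypes. The 5 subunits of eIF2B, which recharges eIF2 with GTP, had the lowest median level of the groups, 12.1 FPKM in both genotypes, and ran from 7.95 to 17.4 FPKM in miR-21 +/+ tissue. Their log2 ratios were -0.10 for Eif2b1, -0.09 for Eif2b5, -0.03 for Eif2b4, 0.05 for Eif2b2 and 0.12 for Eif2b3, with sums of 61.75 and 60.74 FPKM.

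The subunits of eIF3, the large scaffold that binds the small ribosomal subunit, were close in both genotypes. All 13 subunit genes were found, from 33.9 FPKM (Eif3j) to 103 FPKM (Eif3h) in miR-21 +/+ tissue, a 3.03-fold range, and from 35.4 to 108 FPKM in miR-21 -/- tissue, a 3.05-fold range. The log2 ratio of 12 of 13 subunits lay within 0.1 of 0 in the deposited scaling (92.3%, beside 38.9% of all gene names). The median over the 13 subunits was 0.03. With equal sums over all loci, 1 of all 56 factors lay within 0.1 of 0. In the deposited scaling 8 genes were higher (61.5%, beside 44.4% of all gene names). The subunits Eif3a, Eif3b and Eif3c were at 62, 44.5 and 65.1 FPKM in miR-21 +/+ and at 62.2, 43.8 and 64.7 FPKM in miR-21 -/- tissue. Eif3h, Eif3e, Eif3f and Eif3m had log2 ratios of 0.07, 0.06, 0.03 and 0.03, and Eif3d, which can bind the cap of some mRNAs, 0.03. Eif3j, the loosely held subunit, had a log2 ratio of 0.06. The subunits Eif3g and Eif3i, which join the complex through Eif3b, were at 41.5 and 58.3 FPKM in miR-21 +/+ and at 41.4 and 57.6 FPKM in miR-21 -/- tissue. The subunit furthest from even, Eif3l, was at 76.9 and 68.5 FPKM (log2 ratio -0.17). Its partner Eif3k was at 86.9 and 91.8 FPKM (0.08), so these neighbours in the complex differed in opposite directions in the deposited scaling. Both were lower with equal sums over all loci, as were the other subunits. Summed over the complex, the level was 841.5 and 850.4 FPKM.

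**Figure D4:**
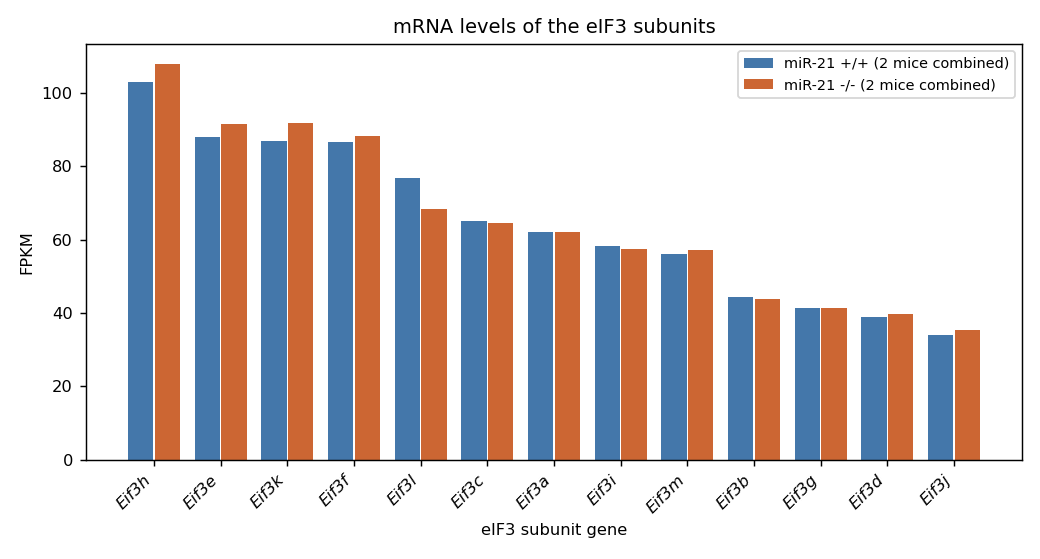
FPKM (vertical axis, from 0) of the 13 eIF3 subunit genes in miR-21 +/+ (blue) and miR-21 -/- tissue (orange), each bar being the authors' value for 2 mice combined, with no error bar since no value per mouse was used. The bars of a pair are of nearly equal height, and Eif3l shows the largest gap, 76.9 against 68.5 FPKM.

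In the cap-binding group, Eif4a2 had a lower log2 ratio than the row that holds its helicase paralog Eif4a1. Eif4a1 was at 255 FPKM in miR-21 +/+ and 252 FPKM in miR-21 -/- tissue, on the row it shares with Cd68 and Senp3. Eif4a2 was at 179 and 148 FPKM, 1.21-fold lower (log2 ratio -0.28), the lowest ratio of all factors, on a locus (chr16:23107552-23127803 in mm9) that overlaps Rfc4. The ratio of the shared Eif4a1 row to Eif4a2 was 1.42 in miR-21 +/+ and 1.7 in miR-21 -/- tissue, and the part of Cd68 and Senp3 in it is not known. Eif4a2 was not far from other genes of its level: 25.8% of gene names above 100 FPKM had a log2 ratio at or below it. Eif4a3, the helicase of the exon junction complex, was at 29.1 and 30.5 FPKM.

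Among the cap-binding proteins, Eif4e was at 24.4 and 23.8 FPKM and its paralog Eif4e2, a repressor, at 22.1 and 21.5 FPKM, a ratio between them of 1.1 and 1.11. Eif4e3 (chr6:99571921-99616810 in mm9) was further apart, at 28 FPKM in miR-21 +/+ and 23.4 FPKM in miR-21 -/- tissue, 1.2-fold lower (log2 ratio -0.26), and 12.9% of gene names of 10 to 100 FPKM had a ratio at or below it. The oocyte gene Eif4e1b was listed at 0 in both genotypes. The scaffolds were at 89.6 and 89 FPKM for Eif4g1, 23.8 and 25.7 FPKM for Eif4g3 (0.11) and 114 and 124 FPKM for Eif4g2 (0.12), whose product lacks the site for eIF4E. The helicase helpers Eif4b and Eif4h were at 89.6 and 86.8 FPKM and at 96.7 and 98.9 FPKM. Summed over the group, the level was 952.1 FPKM in miR-21 +/+ and 923.6 FPKM in miR-21 -/- tissue.

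The group of eIF4E-binding proteins had the lowest summed ratio of the groups, 180.1 FPKM in miR-21 +/+ and 157.7 FPKM in miR-21 -/- tissue (log2 ratio -0.19). The products of Eif4ebp1, Eif4ebp2 and Eif4ebp3 hold eIF4E away from eIF4G until they are phosphorylated, and the group also counts Eif4enif1. The estimates of Eif4ebp3 and Eif4enif1 are marked as failed. Eif4ebp1 (chr8:28370793-28425506 in mm9) was at 113 and 93.9 FPKM, 1.21-fold lower (log2 ratio -0.27), and 26.5% of gene names above 100 FPKM had a ratio at or below it. Eif4ebp2 was at 39.1 and 35.3 FPKM (-0.15). Eif4ebp3, on the row it shares with Ankhd1, was at 14.3 and 15.1 FPKM (0.08), and Eif4enif1, which carries eIF4E to the nucleus, at 13.5 and 13.4 FPKM. Eif4ebp1 transcripts were more abundant than those of Eif4e in both genotypes: the ratio of Eif4e to Eif4ebp1 was 0.215 in miR-21 +/+ and 0.254 in miR-21 -/- tissue, and that of Eif4e to Eif4ebp2 was 0.624 and 0.675.

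The gland is embedded in a fat pad and holds several cell types, whose markers are given beside these values. In the deposited scaling, 44.4% of all gene names were higher in miR-21 -/- tissue. Of 5 adipocyte markers, Adipoq, Plin1, Fabp4 and Cidec were lower in miR-21 -/- tissue (log2 ratios -0.54 to -0.07) and Lep was higher (1.29), with a median of -0.48 and sums of 10251 and 7471 FPKM. Of 10 mammary epithelium markers, 8 were higher (Krt8, Krt18, Krt19, Krt5, Krt14, Epcam, Cdh1 and Elf5) and the milk protein genes Csn2 and Wap lower, with a median log2 ratio of 0.51 and sums of 672 and 907 FPKM. The 4 T cell markers and 4 B cell markers were lower, with median log2 ratios of -2.10 and -2.72 and sums of 27.9 and 6.19 FPKM and of 95.5 and 52.5 FPKM, the latter with Cd79a on a row shared with Arhgef1. Macrophage, endothelium and Schwann cell markers, 4 each, had medians of -0.03, 0.03 and -0.14, and the macrophage list includes Cd68, which lies on the row of Eif4a1. The part of these cell types in the values of Eif4ebp1, Eif4a2 and Eif4e3 was not tested.

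**Figure D5:**
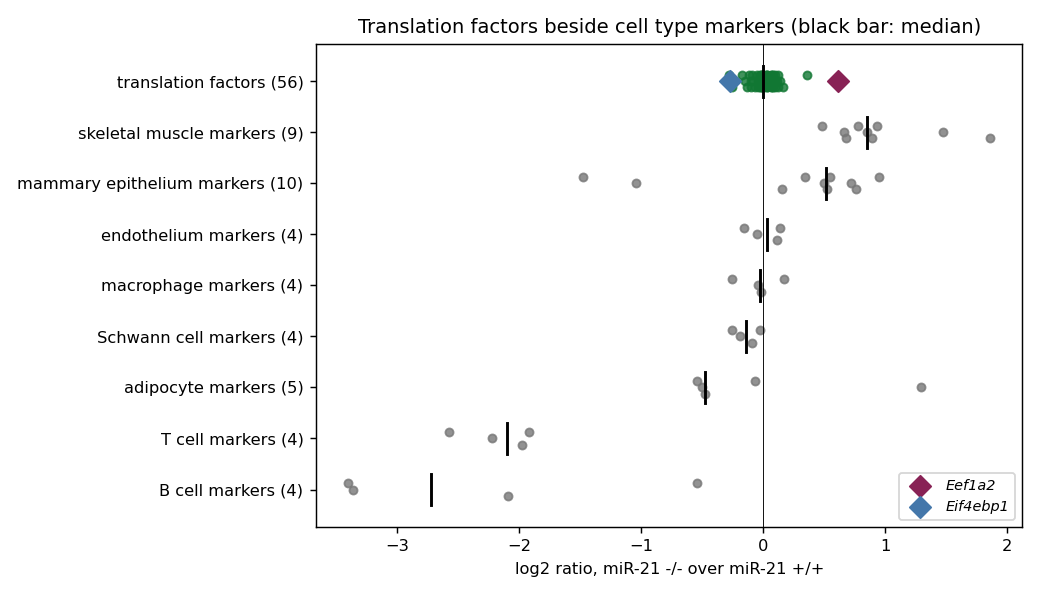
Log2 ratio of miR-21 -/- over miR-21 +/+ (horizontal axis, deposited scaling) of the 56 translation factors (green, first line) and of 8 lists of cell type markers (grey), each point being 1 gene, the black bar the median, the number of genes in parentheses and the vertical spread of points without meaning. Eef1a2 (purple) sits at 0.61 and Eif4ebp1 (blue) at -0.27, while the medians of the marker lists run from -2.72 (B cell) to 0.85 (skeletal muscle).

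The remaining initiation factors were close to even. Eif5b, the GTPase that joins the ribosomal subunits, was at 12.6 and 13.4 FPKM (log2 ratio 0.10), and Eif6, which keeps the large subunit from joining too early, at 19.7 and 21.8 FPKM (0.14). Eif5a, which helps the ribosome through runs of proline and is the carrier of the amino acid hypusine, was at 196 and 185 FPKM (-0.08). Its paralog Eif5a2 was at 1.4 and 1.5 FPKM, the lowest level among the factors above 1 FPKM, and the ratio between both was 139 in miR-21 +/+ and 124 in miR-21 -/- tissue.

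Genes of the wider pathway were given by lists. Transcripts with a terminal oligopyrimidine tract (TOP), which mTOR signalling controls together, include 9 of the factors (Eef1a1, Eef1b2, Eef1d, Eef1g, Eef2, Eif3e, Eif3f, Eif3h and Eif4b). Their log2 ratios ran from -0.07 to 0.08, with sums of 4122 and 4103 FPKM. Cytosolic ribosomal protein genes are TOP transcripts too, and were taken by name, as Rpl or Rps followed by a digit. The 90 names found also include kinase genes such as Rps6kb1 and Rps6kb2, so the values below are not those of ribosomal protein genes alone. In the deposited scaling, 78 of these names were higher (beside 44.4% of all gene names) and 12 lower, and 1 was at least 1.5-fold higher. Their median log2 ratio was 0.08. With equal sums over all loci this median too is shifted by -0.63.

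Termination and recycling factors (4 genes) had log2 ratios of -0.05 to 0.01, the reinitiation factors (3 genes) -0.15 to 0.05, and poly(A)-binding proteins and their partners (5 genes) -0.13 to 0.20. Pabpc1, the main cytoplasmic poly(A)-binding protein, was the upper end, at 231 FPKM in miR-21 +/+ and 266 FPKM in miR-21 -/- tissue. The enzymes that build hypusine on eIF5A and diphthamide on eEF2 (6 genes) ran from -0.09 to 0.25, and the 20 cytosolic tRNA synthetases from -0.28 to 0.19 with a median of -0.03. Some of these genes share a row with a neighbouring gene. No gene of these lists was past 1.5-fold in either direction.

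Of 11 kinases and brakes of translation, 3 were higher and 8 lower in the deposited scaling, where 44.4% of all gene names were higher. None differed by 1.5-fold, with log2 ratios of -0.40 to 0.07 and sums of 314 and 269 FPKM. The lowest ratio was that of Mknk2, which encodes a kinase that phosphorylates eIF4E, at 174 FPKM in miR-21 +/+ and 132 FPKM in miR-21 -/- tissue (log2 ratio -0.40). Pdcd4, a known miR-21 target whose protein binds eIF4A, was at 43.9 and 45.7 FPKM (0.06). Of 10 targets of the integrated stress response, which follows phosphorylation of eIF2, 8 were higher (beside 44.4% of all gene names) and 2 lower. Their median log2 ratio was 0.13. A single gene of this list was past 1.5-fold: Ddit4, which encodes an inhibitor of mTOR, was at 38.2 FPKM in miR-21 +/+ and 20.6 FPKM in miR-21 -/- tissue (log2 ratio -0.89). Asns (-0.43) was lower and Trib3 (0.43) higher, and Atf4, the transcription factor of the response, was at 60.6 and 62.8 FPKM.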

How the data were processed

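Poly(A) RNA of mammary glands from 2 miR-21 +/+ and 2 miR-21 -/- mice was sequenced. Per the submitters' notes and the study's methods, the authors used CASAVA and TopHat on mm9 and then Cufflinks, and deposited 1 Cuffdiff table in FPKM with a single value a genotype. Versions, annotation and normalization options are not given in the sources used here. The table's fold change, test statistic, p-value, q-value and call columns hold the authors' own comparison and were not used. Depth is unknown, since FPKM carries no read counts.

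The plain log2 ratio of the 2 FPKM values was taken without a pseudocount, for names with a mean of at least 1 FPKM and above 0 in both genotypes. With 1 value a genotype, a call means past 1.5-fold, and a log2 ratio of 0.32 was a second limit. No test was run. Every factor was named, by role. From other lists, written from general knowledge, at most 5 genes past 1.5-fold were to be named, and Pdcd4 in any case. Mknk2, Pabpc1, Asns, Trib3 and Atf4 were named after their values were seen. The members and lists were chosen with earlier results of these data known. The selection, filter and fold counts were tested on simulated data. Alternatives were pseudocounts of 1 and 0.1, other filters, 3 scalings, summed rows, merged rows left out, other fold limits and site types, and, added after seeing the data, failed rows left out. Copies were found with blastn 2.17.0 and sequences read with samtools 1.23.1. Python 3.11.15, numpy 2.4.6, pandas 2.3.3 and matplotlib 3.10.9 were used.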

Additional observations from a re-analysis of the deposited data

How the results depend on the processing

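The log2 ratio of each factor stayed within 0.1 of its value with pseudocounts of 1 and 0.1, without the filter, with a minimum of 5 FPKM (55 factors), with equal sums over named loci, with the median of named genes set to 0, with rows of a name summed, without merged rows (54 factors) and without failed rows (51 factors). Scaling to equal sums over all loci shifted every log2 ratio by -0.63: the median over the factors was then -0.63, 0 factors were at least 1.5-fold higher, 37 were at least 1.5-fold lower, 1 was within 0.1 of 0, and Eef1a2 came to -0.02. The loci without a gene name cause that shift, since named loci alone summed to 380567 FPKM in miR-21 +/+ and 355385 FPKM in miR-21 -/- tissue and all loci to 759295 and 1175603 FPKM. With equal sums over named loci, 25 factors were within 0.1 of 0, in place of 39. The interquartile range of the factors stayed at 0.10 to 0.11 in every setting. The count at least 1.5-fold higher, 1 gene, was 0 with a pseudocount of 1, 0 at a limit of 2-fold and 2 at a log2 ratio of 0.32. The count of factors with a seed match, 4, was 1 for 8mer matches alone and 7 when matches of the 7mer-A1 type were added. Without failed rows the median of the eIF4E-binding proteins was -0.21, in place of -0.08. No paired analysis was possible because each genotype has only its combined value, and leaving out each mouse was not run for that reason. Neither the depth of the libraries nor the spread between mice could be read from FPKM values, so differences such as that of Eef1a2 have no error here.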
